A study of Mus musculus with 4 samples.

Results

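The Rab GTPase genes were taken as every gene symbol formed of "Rab", a number and at most 1 further letter and digit, with at least 50 UMIs (unique molecular identifiers, each standing for 1 captured transcript) over all spots. Of 32285 genes in the count matrix, 59 matched the name and 54 reached the minimum. The total of a member ran from 130 UMIs for Rab38 to 175607 for Rab3a. The 5 symbols below the minimum were Rab25 with 37 UMIs, Rab42 with 29, Rab19 with 15, Rab44 with 6 and Rab17 with 2, and they were not described further.

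Rab proteins are small GTPases that sit on the outer face of organelles and vesicles and act as switches of membrane traffic. Exchange factors load them with GTP, GTPase-activating proteins switch them off, and the GTP-bound form recruits effectors that move, tether or fuse membranes. Different members mark different compartments, and in neurons several of them act in the cycle of synaptic vesicles.

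Expression was measured by Visium, in which RNA from a tissue section is captured on an array of barcoded spots that each cover several cells. The 4 libraries came from coronal sections (10 µm, bregma -2.0 to -2.2 mm) of the left hemisphere of female C57BL/6 mice, cut after the meninges had been taken off. There was 1 library each for young mice (3 to 4 months) given vehicle (water), young mice given ethanol, aged mice (18 to 20 months) given vehicle and aged mice given ethanol. Ethanol was given at 3 g/kg. All mice received 10 gavages in 18 days and were killed 18 hours after the last one. Values of the libraries are always listed with the young mice first and, at each age, vehicle before ethanol. The number of mice behind a library is not given in the sources used here, and each library was treated as 1 sample. With 1 library for each age and gavage, no p-value is given for either.

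Spots were grouped by their expression without any use of the Rab genes. Neuronal spots were those of the clusters named neocortex, CA1, dentate, thalamus, hypothalamus and striatum after their marker genes, together with a cluster led by Homer3 and Npy2r. In that last cluster the list of CA3 markers had its highest median, but none of its 10 leading genes was on the list, so it is called the Homer3-Npy2r cluster. A cluster led by Trbc2 and Cplx3 (653 spots) also had no marker of its list among its 10 leading genes. It was kept under neocortex by the median of that list. Levels are counts-per-million values (CPM), a gene's UMIs scaled by the total of a class in a library. Neuronal spots numbered 1299, 1855, 1264 and 1614. White matter spots, with C4b and Opalin among their leading genes, numbered 247, 269, 260 and 291, and choroid plexus spots, led by Ttr, numbered 24, 12, 24 and 11. Spots of clusters without a name were left out of these classes. Libraries held 46005089 to 58307916 UMIs over the spots kept, of which neuronal spots had 23474482 to 39595002, white matter 1881543 to 2810582 and choroid 379446 to 890396. The depth behind a value thus differed between classes: 3 UMIs stood for 0.0758 to 0.128 CPM in neuronal spots, 1.07 to 1.59 CPM in white matter and 3.37 to 7.91 CPM in choroid. As 3′ UMIs are not scaled by transcript length, and capture may differ between genes, levels were compared between spots and not between genes.

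The classes were not pure. The markers helped to form and to name the classes, so their levels describe the classes and are no check of them. The 8 neuron markers, all detected in each class and library, summed to 5173 to 5637 CPM in neuronal spots, 1090 to 1324 CPM in white matter and 237 to 394 CPM in choroid. The 13 oligodendrocyte markers, also all detected, summed to 4579 to 5302 CPM, 45418 to 50180 CPM and 5385 to 14857 CPM. A lower level in a class can mean fewer cells that express the gene or less RNA per cell, and these cannot be told apart in spots. The sections labelled ethanol held 474 and 480 thalamus spots against 200 and 215 in those labelled vehicle, so section content followed the gavage label. In neuronal spots the mitochondrial share was 16.5% in the library labelled aged ethanol and 12.9% to 14.2% in the others. The libraries shared 1205 of 4187 distinct barcodes, which are positions on the slide.

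Summed over the 54 genes, Rab transcripts made up 5443, 5538, 5574 and 5251 CPM of neuronal spots. They made up 3981, 3706, 3720 and 3550 CPM of white matter and 2361, 2632, 2205 and 2506 CPM of choroid. The classes did not overlap in this sum, and the order from neuronal to choroid spots was the same in each library. Abundant genes weigh most in it. Rab3a and Rab6b were at 920 and 573 CPM over all neuronal spots and at means of 296 and 216 CPM in white matter. The sum thus does not give the direction of each member. With class totals, the scale of this sum, 12 members were called higher and 28 lower in white matter. With the scaling used below, 18 were higher and 19 lower. Ttr alone took 217868, 152759, 258800 and 183905 CPM of choroid spots, which lowers the CPM of every other gene there. For this reason fold changes below are from edgeR's fit with TMM scaling, which sets the bulk of genes near no change, and they differ from plain ratios of CPM.

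In white matter against neuronal spots, 18 of the 54 genes were higher and 19 were lower by edgeR's quasi-likelihood test with the library as a block (Benjamini-Hochberg adjusted p under 0.05). Of all 14095 genes tested, 30.3% were higher and 32.0% lower, so the numbers of Rab genes called were close to the background. Here and in the tests below, the genes tested leave out the 1632 genes used for clustering. Those hold 1500 variable genes and the markers, so genes that differ between classes may be under-represented in the background. The CPM of 34 Rab genes (63.0%) did not overlap between the classes, against 57.6% of all genes. The median log2 fold change was -0.09 for the Rab genes and -0.03 for all genes. By role, the 19 lower genes held 5 of exocytosis and synaptic vesicles and 6 of the endoplasmic reticulum and Golgi, and the 18 higher genes held 4 of early endosomes and 5 of late endosomes and lysosomes. Whether the roles differed was not tested.

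Of the 8 genes of exocytosis and synaptic vesicles, 5 were lower, none was higher and 3 were not called, with a median log2 fold change of -1.26. Rab3a, the most studied Rab of synaptic vesicles, stood at 953, 961, 913 and 842 CPM in neuronal spots and at 353, 291, 298 and 244 CPM in white matter. Every neuronal value was above every white matter value. The log2 fold change was -1.42 ± 0.08 (SE of the fit, n = 4 libraries, edgeR adjusted p = 5.69e-21). Here and below, the SE was derived from the fold change and edgeR's F statistic. It is not the spread over the values of the 4 libraries. Rab3c, a close relative on the same vesicles, was at 146, 210, 159 and 218 CPM in neuronal spots and at 49.2, 39.5, 38.3 and 45.6 CPM in white matter (log2 -1.85 ± 0.10). Rab26, a member tied to vesicle clusters and secretory granules, was at 42.4, 34.3, 47.2 and 31.4 CPM against 8.70, 8.18, 9.04 and 7.42 CPM (log2 -1.99 ± 0.15). The white matter levels of Rab26 stayed within a narrow band while its neuronal levels were higher in both libraries labelled vehicle. Rab26 had a mean of 7.86 CPM in thalamus and 45.2 CPM in neocortex, and the number of thalamus spots followed the gavage label. The part of section content in its neuronal levels was not tested. Rab27b, which acts in docking of secretory vesicles, and Rab27a, its relative, were lower with log2 -1.72 ± 0.16 and -1.09 ± 0.38. Rab27a lost its call without aged vehicle or aged ethanol (edgeR adjusted p = 0.0765 and 0.0582), and it turned to log2 0.18 when neocortex alone stood for the neuronal spots. Rab3b, Rab3d and Rab37 were not called (log2 -0.09 ± 0.12, -0.20 ± 0.29 and -0.27 ± 0.15). With neuronal regions weighted equally, the log2 ratio of CPM of Rab3b turned from -0.35 to 0.16. Rab37 was far higher in thalamus than in neocortex, as given below, and both are part of the neuronal class.

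Among the 8 early endosome genes, 4 were higher, 1 was lower and 3 were not called (median log2 0.48). Rab31, a relative of the endosomal Rab22a that also acts at the trans-Golgi, was at 40.5, 40.2, 32.8 and 40.6 CPM in neuronal spots and at 168, 164, 119 and 167 CPM in white matter. The lowest white matter value, in aged vehicle, was still above every neuronal value, and the log2 fold change was 2.22 ± 0.10 (edgeR adjusted p = 2.33e-24). Rab21, a regulator of integrin uptake, Rab5b and Rab5c, which serve early endosome fusion, were higher by log2 0.59 ± 0.09, 0.49 ± 0.09 and 0.47 ± 0.08. Rab24, which has been linked to autophagy, was lower by log2 -0.60 ± 0.10. Rab5a, the best known early endosome member, was at 123, 134, 156 and 118 CPM in neuronal spots and 123, 129, 136 and 103 CPM in white matter and was not called. Its relatives Rab5b and Rab5c did not overlap between the classes, and Rab5a did.

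Of the 7 genes of late endosomes and lysosomes, 5 were higher, 1 was lower and 1 was not called (median log2 0.46). Rab29, a lysosome and Golgi member known as a partner of the kinase LRRK2, was at 2.93, 2.85, 3.37 and 2.63 CPM in neuronal spots and at 7.57, 7.47, 7.44 and 7.42 CPM in white matter (log2 1.57 ± 0.24, edgeR adjusted p = 2.89e-07). Rab7b, a late endosome and Golgi member, was at 0.524, 0.480, 0.298 and 0.591 CPM in neuronal spots and at 1.13, 4.27, 4.25 and 7.79 CPM in white matter. Its white matter levels rested on 3, 12, 8 and 21 UMIs, and its log2 fold change was 3.33 ± 0.42 (edgeR adjusted p = 2.75e-09). Rab32, which acts in lysosome-related organelles, was higher by log2 1.56 ± 0.41, but its values overlapped: 1.43, 1.31, 1.49 and 1.05 CPM in neuronal spots against 1.13, 6.76, 1.06 and 4.08 CPM in white matter. The call of Rab32 was lost without the library labelled young ethanol (edgeR adjusted p = 0.103) and with DESeq2 (adjusted p = 0.0941). The 9 microglia markers, all detected, summed to 1209, 3142, 1365 and 2353 CPM in white matter and 438 to 616 CPM in neuronal spots, so they too were highest in the libraries labelled ethanol, and their part in Rab32 was not tested. Rab9b stood apart from the other late endosome genes. It was at 29.9, 25.8, 37.4 and 28.6 CPM in neuronal spots and at 6.43, 8.18, 9.04 and 6.30 CPM in white matter (log2 -1.80 ± 0.16), whereas Rab9, which returns receptors from late endosomes to the Golgi, was higher by log2 0.46 ± 0.10.

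The recycling endosome genes numbered 7, of which 2 were lower, none was higher and 5 were not called. Rab15, an inhibitor of early endocytic traffic, was at 124, 101, 111 and 91.3 CPM in neuronal spots and at 21.9, 24.6, 23.9 and 16.7 CPM in white matter. That was a log2 fold change of -2.08 ± 0.11 (edgeR adjusted p = 4.52e-21). Rab35, which sorts cargo back to the surface, was lower by log2 -0.40 ± 0.10. Rab11a and Rab11b, the defining members of the recycling endosome, had log2 fold changes of -0.09 ± 0.08 and 0.02 ± 0.08, and Rab4a, Rab4b and Rab14 were not called either.

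Of the 14 genes of the endoplasmic reticulum and Golgi, 4 were higher, 6 were lower and 4 were not called. Rab33b, a Golgi member that binds the autophagy protein Atg16l1, was at 22.2, 24.9, 24.3 and 26.1 CPM in neuronal spots and at 72.6, 64.0, 63.2 and 67.9 CPM in white matter. It was higher by log2 1.68 ± 0.09 (edgeR adjusted p = 3.12e-21), with no overlap. Rab6b, the neuron-enriched form of the Golgi Rab6, was at 560, 589, 573 and 564 CPM against 227, 226, 212 and 200 CPM (log2 -1.18 ± 0.07), and Rab36 was lower by log2 -1.17 ± 0.19. Of the 5 post-Golgi genes, Rab10 and Rab13, which act in delivery to the plasma membrane and at cell junctions, were higher by log2 0.66 ± 0.08 and 0.74 ± 0.19. Rab8a was also higher, and Rab12 and Rab8b were lower. In the last group of 5, Rab40b, part of a ubiquitin ligase, was at 44.0, 31.2, 42.0 and 32.6 CPM in neuronal spots and 7.19, 8.18, 9.04 and 5.93 CPM in white matter. Its log2 fold change was -2.09 ± 0.15, while its relative Rab40c was higher by log2 0.58 ± 0.09. Rab23, which acts in Hedgehog signalling at the cilium, was higher, Rab28 was lower and Rab34 was not called (log2 0.38 ± 0.13, -0.60 ± 0.10 and -0.01 ± 0.15).

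**Figure D1:**
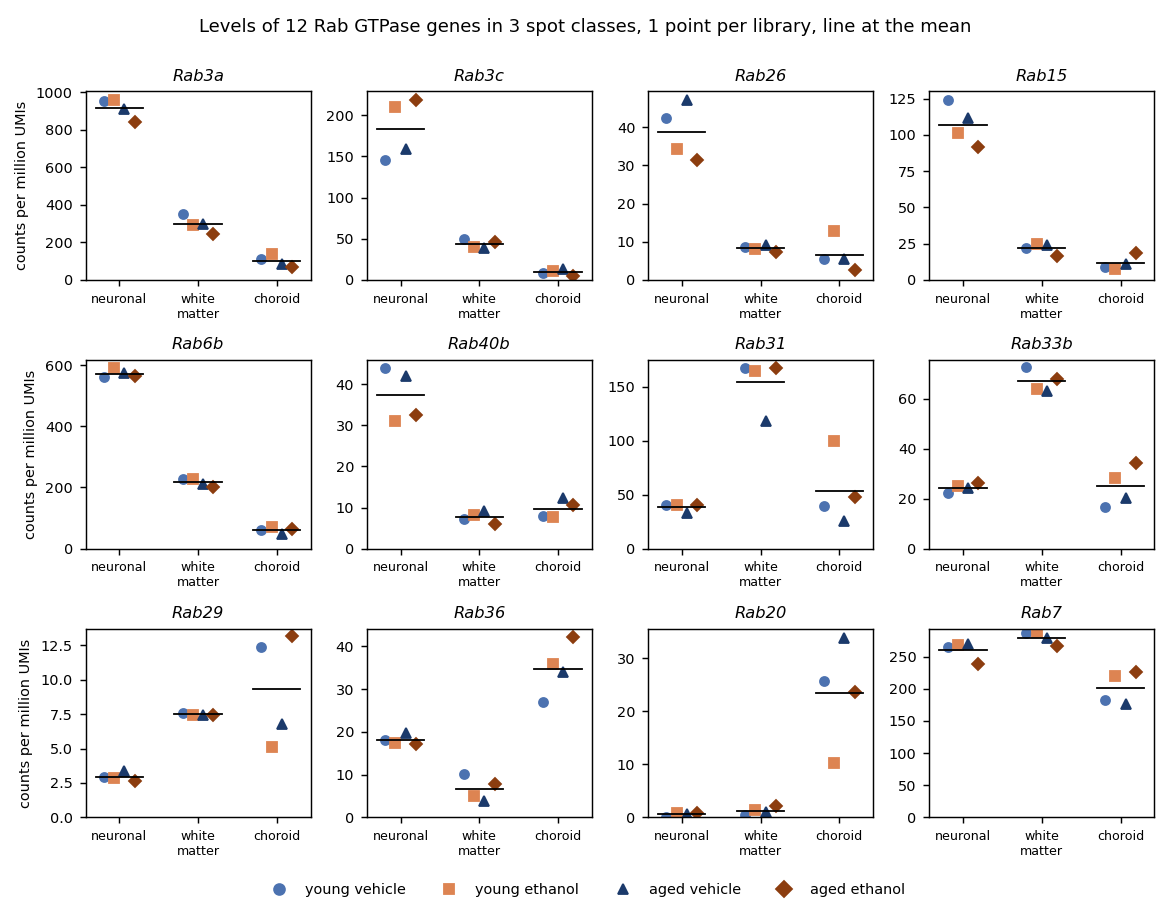
Levels in CPM (vertical axes, each starting at 0) of 12 Rab genes in neuronal, white matter and choroid spots, with 1 point per library and a line at the mean of the 4 libraries. Rab3a, Rab3c, Rab26, Rab15, Rab6b and Rab40b were highest in neuronal spots, Rab31 and Rab33b in white matter, and Rab36 and Rab20 in choroid, while Rab7 differed little between neuronal spots and white matter.

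Scaling moved the split between higher and lower genes. With class totals and no TMM, the median of all genes in white matter moved to -0.25 and the Rab genes split into 12 higher and 28 lower, and DESeq2 gave 12 higher and 20 lower. Totals without choroid and oligodendrocyte markers gave 13 higher and 25 lower, a setting added after the data were seen. Without TMM, Rab1b turned its sign among the genes called, and 12 of the 18 higher and all 19 lower genes kept their call.

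In choroid against neuronal spots, 11 Rab genes were higher and 27 were lower, whereas 26.0% of all genes tested were higher and 26.9% lower. The share of lower genes, 27 of 54, was thus above the background. The share of higher genes, 20.4%, was below its background of 26.0% by less. Here and in the other comparisons, the background genes were not matched to the Rab genes for level. The part of level in these shares was not tested. The values of 37 Rab genes did not overlap (68.5%, against 56.7% of all genes). The median log2 fold change was -0.37 for the Rab genes and -0.09 for all genes. With class totals and no TMM, the median of all genes moved to -0.41 and the Rab genes split into 8 higher and 36 lower.

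Exocytosis genes were again at the low end, with 6 of 8 lower, none higher and 2 not called (median log2 -2.59). Rab3c was at 7.86, 10.3, 13.6 and 5.27 CPM in choroid, from 7, 4, 10 and 2 UMIs, and its log2 fold change of -3.87 ± 0.21 was the lowest of the Rab genes (edgeR adjusted p = 1.01e-20). Rab3b (log2 -3.29 ± 0.36), Rab3a (-2.90 ± 0.11), Rab27b (-2.83 ± 0.37), Rab26 (-2.36 ± 0.28) and Rab37 (-2.12 ± 0.41) were lower too. Rab3a was at 111, 138, 84.1 and 68.5 CPM in choroid, and Snap25, a synaptic gene of neurons, was at 168, 136, 83 and 158 CPM in the same spots. Outside this group, Rab9b (log2 -3.30 ± 0.39), Rab15 (-3.01 ± 0.21), Rab6b (-2.95 ± 0.11), Rab33a (-2.21 ± 0.36) and Rab39b (-2.16 ± 0.31) were among the lowest genes. Of the 7 recycling endosome genes, 6 were lower and Rab11a was not called (log2 -0.07 ± 0.12). Among the 14 endoplasmic reticulum and Golgi genes, 8 were lower and 2 were higher.

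Rab20, an endosomal member known from epithelia and macrophages, had the highest fold change in choroid. It was at 0.140, 0.884, 0.639 and 0.723 CPM in neuronal spots and at 25.8, 10.3, 33.9 and 23.7 CPM in choroid, from 23, 4, 25 and 9 UMIs. Its level in choroid was above every neuronal and every white matter value, and the log2 fold change was 5.75 ± 0.42 against neuronal spots and 4.43 against white matter (edgeR adjusted p = 2.3e-16 and 2.19e-10). Rab38, a member of lysosome-related organelles, was at 4.49, 0, 4.07 and 5.27 CPM in choroid from 9 UMIs in all, with log2 2.86 ± 0.73. The library at 0, young ethanol, allowed up to 7.69 CPM by the 3 UMIs that a count of 0 allows, so no order among the choroid libraries could be read. Rab29 (log2 2.00 ± 0.40), Rab13 (1.32 ± 0.31) and Rab36 (1.18 ± 0.21) were higher without overlap. Rab34, which is needed for cilium formation, was higher by log2 1.17 ± 0.21, and Rab43, a Golgi member, by 1.08 ± 0.32, both with overlap. Rab5c was higher by a smaller log2 0.34 ± 0.11.

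The calls of Rab7b, Rab31 and Rab8a in choroid were weaker. Rab7b had log2 2.56 ± 0.98 from 5 UMIs in choroid, and its call was lost without the library labelled young ethanol, aged vehicle or aged ethanol (edgeR adjusted p = 0.366, 0.0515 and 0.0578). Rab31 was at 39.3, 99.9, 25.8 and 47.4 CPM in choroid, which overlapped the neuronal values, with log2 0.62 ± 0.17. The oligodendrocyte markers in choroid summed to 9689, 14857, 5385 and 11830 CPM and so had the same order over the libraries. The order was not particular to them. Astrocyte markers (924, 1650, 490 and 1078 CPM) and microglia markers (456, 1007, 330 and 656 CPM) had it too. Choroid markers (236299, 164780, 279759 and 200624 CPM) had the reverse order. The part of other cell types in the level of Rab31 was not tested. Without young ethanol the call of Rab31 was lost (edgeR adjusted p = 0.169), and so it was with no TMM (edgeR adjusted p = 0.141). Rab8a had log2 0.41 ± 0.16 and lost its call without young vehicle or without aged ethanol (edgeR adjusted p = 0.374 and 0.152) and in 4 of the other settings (edgeR or DESeq2 adjusted p from 0.0519 to 0.662).

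In choroid against white matter, 6 Rab genes were higher and 27 were lower, whereas 19.1% of all genes were higher and 22.0% lower (edgeR, adjusted p under 0.05). Values did not overlap for 27 Rab genes, or 50%, against 36.3% of all genes. The median log2 fold change was -0.48 for the Rab genes and -0.15 for all genes. The 6 higher genes were Rab20, Rab38 (log2 3.75), Rab36 (2.36), Rab34 (1.18), Rab28 (0.69) and Rab24 (0.51). Rab36 was at 27.0, 35.9, 33.9 and 42.2 CPM in choroid, 18.0, 17.4, 19.7 and 17.2 CPM in neuronal spots and 10.2, 4.98, 3.72 and 7.79 CPM in white matter, so the classes did not overlap. When choroid markers were left out of the totals, the split was 9 higher and 16 lower, a setting added after the data were seen.

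**Figure D2:**
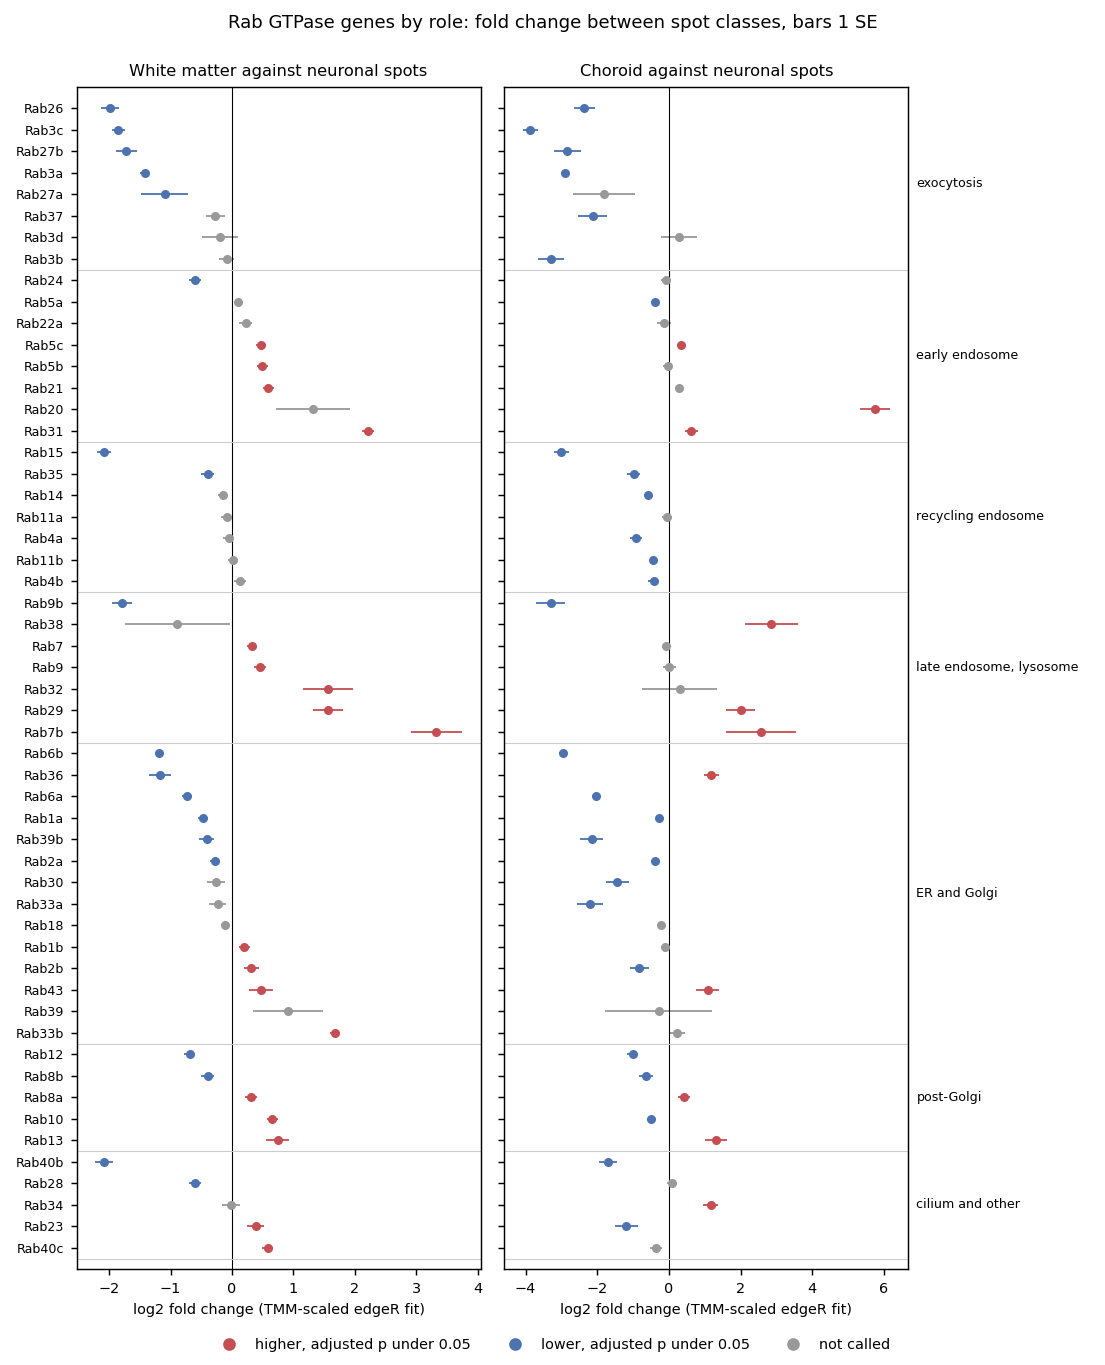
Log2 fold change (horizontal axes, edgeR fit with TMM scaling, bars 1 SE) of all 54 Rab genes in white matter (left) and choroid (right) against neuronal spots, ordered by role. Red and blue points were called higher and lower and grey points were not called. Rab26, Rab3c, Rab27b and Rab3a lay at the left in both panels, Rab7b and Rab31 at the right in white matter, and Rab20 at 5.75 in choroid.

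Promoter windows are shown for the members with the lowest and highest fold changes among those with a single window in the RefSeq table (GRCm38.p6, 250 bases before to 50 after the start), to let the genes that moved apart be read side by side. The first pair was low in white matter, the second pair was high there, and Rab20 was high in choroid. They lie at chr11:121388202-121388501 (minus strand, Rab40b), chr13:110280157-110280456 (minus, Rab3c), chr17:65772703-65773002 (minus, Rab31), chr3:51483716-51484015 (plus, Rab33b) and chr8:11478591-11478890 (minus, Rab20). The window of Rab3c lies inside its RefSeq locus, which reaches to 110280996, so it does not span the outer end of that locus. Each window is written 5′ to 3′ along the gene, with motif matches in capitals.
Rab40b: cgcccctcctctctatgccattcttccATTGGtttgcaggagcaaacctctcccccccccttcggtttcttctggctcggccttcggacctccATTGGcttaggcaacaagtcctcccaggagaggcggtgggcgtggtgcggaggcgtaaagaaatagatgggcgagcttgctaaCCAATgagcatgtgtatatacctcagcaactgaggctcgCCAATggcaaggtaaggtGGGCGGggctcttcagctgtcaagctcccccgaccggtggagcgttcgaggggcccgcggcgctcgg
Rab3c: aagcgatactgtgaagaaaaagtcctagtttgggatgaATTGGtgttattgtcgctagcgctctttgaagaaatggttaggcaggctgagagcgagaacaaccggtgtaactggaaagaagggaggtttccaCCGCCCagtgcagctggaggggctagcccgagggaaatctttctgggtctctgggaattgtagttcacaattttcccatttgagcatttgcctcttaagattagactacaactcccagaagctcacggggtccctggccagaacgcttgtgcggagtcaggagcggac
Rab31: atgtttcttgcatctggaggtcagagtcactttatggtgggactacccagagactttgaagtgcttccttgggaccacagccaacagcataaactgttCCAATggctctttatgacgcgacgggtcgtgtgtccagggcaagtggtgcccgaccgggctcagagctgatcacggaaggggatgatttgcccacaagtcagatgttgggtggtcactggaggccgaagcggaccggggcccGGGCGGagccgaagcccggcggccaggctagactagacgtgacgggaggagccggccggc
Rab33b: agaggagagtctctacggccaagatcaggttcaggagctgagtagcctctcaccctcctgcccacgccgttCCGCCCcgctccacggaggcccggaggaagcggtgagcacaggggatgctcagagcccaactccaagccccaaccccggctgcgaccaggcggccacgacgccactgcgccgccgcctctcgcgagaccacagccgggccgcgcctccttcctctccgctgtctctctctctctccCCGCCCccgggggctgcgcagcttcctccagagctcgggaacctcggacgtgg
Rab20: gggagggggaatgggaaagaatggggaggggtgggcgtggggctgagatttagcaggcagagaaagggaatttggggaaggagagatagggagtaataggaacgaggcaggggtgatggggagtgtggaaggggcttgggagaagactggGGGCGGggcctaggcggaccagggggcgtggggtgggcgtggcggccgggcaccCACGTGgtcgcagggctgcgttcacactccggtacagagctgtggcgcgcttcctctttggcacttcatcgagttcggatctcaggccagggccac
The motifs searched on both strands were the GC box GGGCGG, the E-box CACGTG, the cyclic AMP response element TGACGTCA, the TATA box TATAAA and the CCAAT box CCAAT. No matches overlapped in these 5 windows. Each of the 5 held a GC box, Rab33b at 2 places. Rab40b held 4 CCAAT matches, Rab3c and Rab31 held 1 each, and Rab33b and Rab20 held none. Rab20 alone among the 5 held an E-box, and neither the cyclic AMP element nor the TATA box was found in any of the 5.

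Windows were found for 44 of the 54 Rab genes (the first listed was taken where a gene had several). Those not in the table were Rab2a, Rab4a, Rab7b, Rab18, Rab26, Rab27b, Rab30, Rab36, Rab37 and Rab38. A GC box was in 33 of the 44 windows (75.0%) and in 35.9% of the windows of all 27025 genes in the table. A CCAAT box was in 22 of the 44 windows against 37.9%, an E-box in 11.4% against 7.24%, and a TATA box in 6.82% against 14.2%. The cyclic AMP element was in 1 window (2.27%) against 1.88%. The median GC content was 63.0% for the Rab windows and 52.7% for all, and the table covers genes of every kind. Between the Rab genes higher and lower in white matter, the share with a GC box was 12 of 17 and 12 of 15, and with a CCAAT box 9 of 17 and 7 of 15. A match describes letters in a window and not a bound site.

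In 5 of 14 subfamilies 1 member was called higher and another lower in white matter, although the differences between members were not tested. These were Rab1a (log2 -0.48 ± 0.08) and Rab1b (0.20 ± 0.08), which act between endoplasmic reticulum and Golgi, and Rab2a (-0.28 ± 0.07) and Rab2b (0.31 ± 0.12), which serve the same step. Next were Rab8a (0.30 ± 0.10) and Rab8b (-0.39 ± 0.11), of post-Golgi traffic, and then Rab9 and Rab9b, and Rab40c and Rab40b, as given above. The first 3 of these splits depended on the scaling. With library totals and no TMM (edgeR), Rab1b (log2 -0.01), Rab2b (0.10) and Rab8a (0.08) were not called, with adjusted p of 0.896, 0.490 and 0.475. With DESeq2 they were not called either, with adjusted p of 0.0980, 0.112 and 0.0757. The Rab9 and Rab40 pairs kept both calls under both settings.

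In the other subfamilies the members called did not oppose each other. Rab3a and Rab3c were lower in white matter and Rab3b and Rab3d were not called, Rab6a (log2 -0.73 ± 0.08) and Rab6b were both lower, and so were Rab27a and Rab27b. Rab5b and Rab5c were higher beside Rab5a, which was not called. Rab7, the late endosome and lysosome regulator, was higher by log2 0.32 ± 0.07 and Rab7b by 3.33. Rab33b was higher and Rab33a was not called (log2 -0.23 ± 0.14), Rab39b was lower (-0.41 ± 0.12) and Rab39 was not called (0.91 ± 0.56). Neither member of the Rab4 or Rab11 subfamily was called. In choroid, Rab8a was higher and Rab8b lower (log2 -0.63 ± 0.20), and Rab5c was higher and Rab5a lower (-0.39 ± 0.12), while the other subfamilies had no such opposed pair. Both Rab2 and both Rab4 members were lower, as were Rab40b (log2 -1.69 ± 0.25) and Rab1a (-0.26 ± 0.10), beside Rab40c and Rab1b, which were not called. Rab6a and Rab6b fell by 2.04 and 2.95 on the log2 scale there, and Rab7b was higher beside Rab7, which was not called. Rab9 was not called (log2 0.01 ± 0.18) where Rab9b was lower, and Rab33b was not called (0.23 ± 0.20) where Rab33a was lower.

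Across the named neuronal regions the Rab genes differed in where they peaked. Of the 54 genes, 15 had their highest mean level in the Homer3-Npy2r cluster, 9 in dentate, 8 in white matter, 6 in choroid, 5 in thalamus, 4 each in CA1 and hypothalamus, 3 in neocortex and 0 in striatum. Of all 13726 genes tested between regions, 11.5% had their highest mean level in the Homer3-Npy2r cluster, 26.1% in dentate, 12.3% in white matter and 16.6% in choroid. The top region did not overlap the next in 12 of the 54 Rab genes, against 25.9% of all genes. The Homer3-Npy2r cluster also had the highest summed Rab level, 6427, 6537, 6608 and 6492 CPM.

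In thalamus against neocortex, 18 Rab genes were higher and 11 lower by edgeR, whereas 26.2% of all genes were higher and 27.7% lower. Values of 24 Rab genes (44.4%) did not overlap, against 43.1% of all genes. Rab37, which has been tied to secretory granules and exocytosis and lies at chr11:115091331-115162773, was at 123, 112, 122 and 100.2 CPM in thalamus and at 2.31, 4.23, 2.37 and 5.06 CPM in neocortex. It stood far above in each library (log2 5.06 ± 0.13, edgeR adjusted p = 7.31e-42), and the mean thalamus level was 7.98 times that of the next region, white matter. RefSeq places another gene, Cd300lf, over the same locus, and how the counting treated strand was not given in the sources used here. Rab3c was at 358, 470, 342 and 485 CPM in thalamus against 115, 112, 118 and 138 CPM in neocortex (log2 1.84 ± 0.07). Rab38 was higher by log2 3.50 ± 0.49 and Rab27a by 1.08 ± 0.28, the latter with overlap and with its call lost without young ethanol (edgeR adjusted p = 0.0917). Rab3b went the other way, at 4.38, 10.4, 6.36 and 9.70 CPM in thalamus and 88.6, 79.5, 89.3 and 75.2 CPM in neocortex (log2 -3.21 ± 0.16). Rab26 (log2 -2.32 ± 0.13), Rab40b (-2.09 ± 0.11) and Rab15 (-1.66 ± 0.08) were lower as well. The exocytosis genes thus split, with 3 higher, 4 lower and 1 not called.

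In hypothalamus against neocortex, 12 Rab genes were higher and 15 lower (24.9% and 25.8% of all genes, edgeR), and 22 (40.7%) did not overlap, against 40.6%. Rab27a was at 9.42, 7.12, 9.33 and 7.61 CPM in hypothalamus and 1.09, 1.65, 1.58 and 1.80 CPM in neocortex, a log2 fold change of 2.42 ± 0.21 (edgeR adjusted p = 8.52e-16). Rab9b was at 67.8, 57.0, 77.4 and 64.9 CPM against 19.3, 18.0, 21.1 and 14.8 CPM (log2 1.84 ± 0.08). Rab13 and Rab36 followed with log2 1.06 ± 0.16 and 0.99 ± 0.10. The lowest were Rab33a (log2 -1.01 ± 0.09), Rab6b (-0.81 ± 0.06), Rab15 (-0.80 ± 0.07) and Rab3d (-0.78 ± 0.21). All 8 genes named here had no overlap between the regions.

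In dentate against CA1, 5 Rab genes were higher and 19 lower, whereas 13.1% of all genes were higher and 16.2% lower (edgeR), and 15 (27.8%) did not overlap, against 26.6%. Rab8b, of post-Golgi traffic, was at 33.5, 29.5, 44.5 and 43.7 CPM in dentate and 101, 85.1, 116 and 89.7 CPM in CA1 (log2 -1.57 ± 0.14). Rab3c (log2 -1.40 ± 0.11), Rab27b (-1.06 ± 0.17) and Rab13 (-1.70 ± 0.60) were lower, the last from 6 UMIs in dentate and with overlap. Rab32 was higher at 3.47, 4.34, 6.36 and 4.23 CPM against 0.520, 0.535, 1.12 and 0.949 CPM (log2 2.31 ± 0.63), as were Rab36 (1.14 ± 0.23), Rab3d (0.81 ± 0.29) and Rab40c (0.72 ± 0.13). With no TMM the median of all genes moved from -0.03 to 0.18 and the split turned to 11 higher and 9 lower, with Rab3a turning its sign. Without the library labelled young ethanol, 12 were lower. Rab13 lost its call without young vehicle, young ethanol or aged ethanol and Rab3d without young vehicle or young ethanol (edgeR adjusted p from 0.0562 to 0.353), and Rab32 lost it at the coarser clustering (edgeR adjusted p = 0.0974).

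In the Homer3-Npy2r cluster against CA1, 11 Rab genes were higher and 6 lower, where 10.8% and 11.3% of all genes were (edgeR), and 19 (35.2%) did not overlap, against 20.6%. Rab15 was at 201, 250.1, 190.3 and 220.1 CPM in the cluster and 81.6, 68.5, 63.7 and 86.4 CPM in CA1 (log2 1.45 ± 0.10). Rab26 (log2 0.76 ± 0.14), Rab39b (0.59 ± 0.16) and Rab29 (1.39 ± 0.51, with overlap) were higher. Rab8b (log2 -1.38 ± 0.14), Rab40b (-1.24 ± 0.13), Rab27b (-1.24 ± 0.18) and Rab31 (-0.82 ± 0.21) were lower. Without young ethanol 7 were higher, and with finer clusters Rab31 turned to log2 0.07 and Rab26 was no longer called (0.28). Rab29 lost its call without young ethanol or aged vehicle (edgeR adjusted p = 0.0968 and 0.389), and Rab39b without aged ethanol (edgeR adjusted p = 0.0503).

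**Figure D3:**
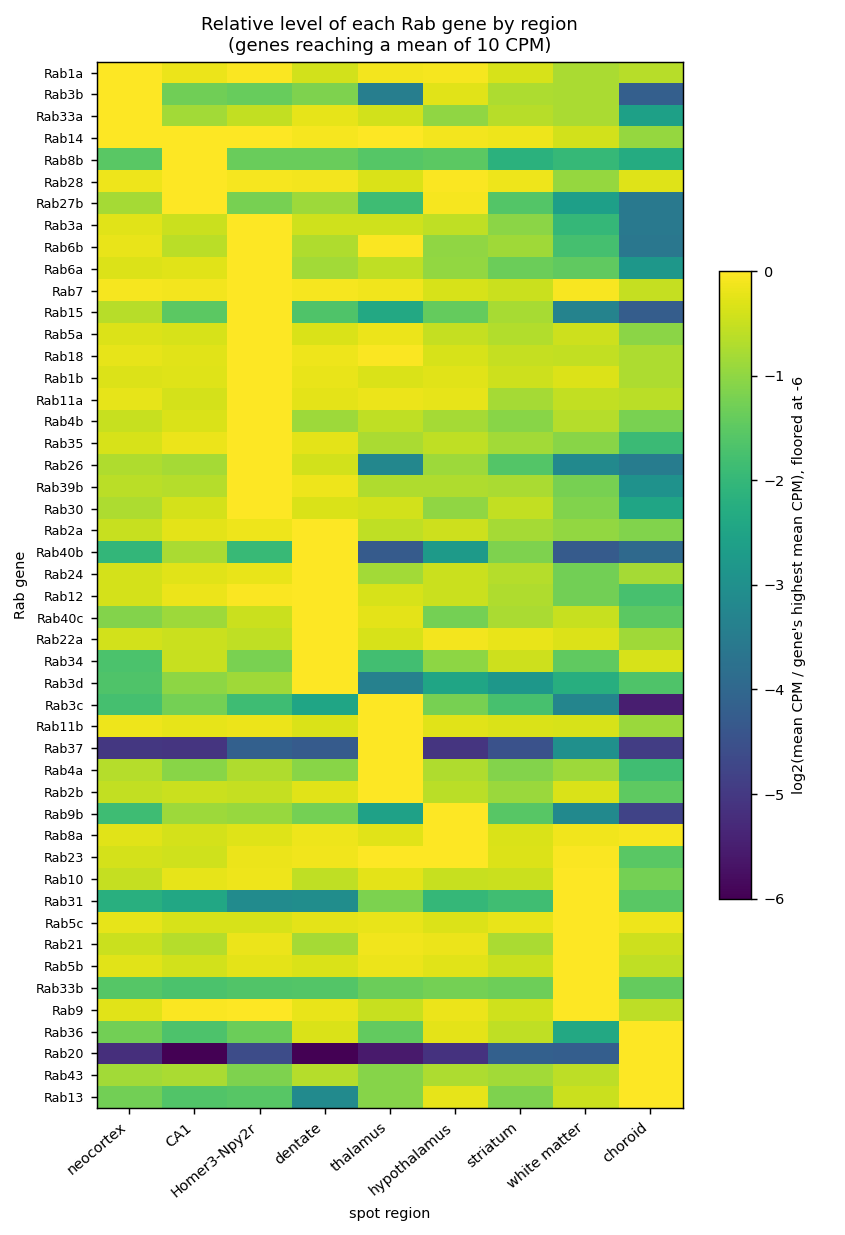
Mean level over the 4 libraries of the 48 Rab genes that reached a mean of 10 CPM in a region, as the log2 ratio to the highest region of the same gene (colour, floored at -6). Rows are ordered by the region with the highest level. Rab37 was bright in thalamus alone, Rab20 in choroid, and Rab31 and Rab33b in white matter, while Rab5c, Rab8a and Rab7 varied least between regions, by 1.28, 1.31 and 1.45 times from the lowest to the highest mean.

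The machinery that acts on Rab proteins was counted from lists of its genes. Of the 8 genes of prenylation and recycling of Rabs, 5 were lower and 1 was higher in white matter against neuronal spots (median log2 -0.42). Over all genes tested, 30.3% were higher and 32.0% lower, with a median log2 of -0.03. Of 33 exchange factors tested, 13 were higher and 9 lower (median 0.26). Rin1 (log2 -1.88 ± 0.17) and Madd (-1.75 ± 0.11), which act on Rab5 and Rab3, were the lowest, and Dennd1c (2.00 ± 0.46) and Rin3 (1.56 ± 0.34) were the highest. Of 36 GTPase-activating proteins, 11 were higher and 11 lower, near the background, from Sgsm1 (log2 -1.69 ± 0.12) to Tbc1d16 (1.48 ± 0.10). Of 42 effectors, 11 were higher and 18 lower (median -0.17). Rims3 was lower by log2 -2.15 ± 0.11 and Rph3a, which binds Rab3, by -1.16 ± 0.09. Micall1, a scaffold of recycling endosomes, was higher by 2.75 ± 0.09.

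In choroid against neuronal spots the counts higher and lower were 1 and 3 of 8, 6 and 10 of 33, 7 and 11 of 36, and 13 and 17 of 42 in the same order of lists, against 26.0% higher and 26.9% lower over all genes. Madd was lower by log2 -2.18 ± 0.17. Rims3, Rph3a and Rims1 were lower by log2 -3.66 ± 0.22, -3.58 ± 0.18 and -3.55 ± 0.33. Rilp, an effector of Rab7, and Rab11fip1, an effector of Rab11, were higher by log2 4.87 ± 0.27 and 4.42 ± 0.37, and Tbc1d2 and Tbc1d9, both GTPase-activating proteins, by 4.50 ± 0.27 and 3.11 ± 0.11. Rab7 itself was not called in choroid (log2 -0.09 ± 0.09), and neither was Rab11a, while Rab11b was lower (-0.44 ± 0.10).

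Between gavage labels few Rab genes passed the rule used for size, a difference of 1.5-fold or more, taken only where the deeper of the libraries compared had 50 UMIs of the gene or more. Each ratio compares 1 library with 1 other, so an interval given below is an exact conditional binomial 95% interval that covers counting error alone. In neuronal spots, 49 Rab genes could be measured at both ages. Rab37 was at least 1.5-fold higher with ethanol at both ages (1 of 49, where 1.01% of all genes were), and 0 were lower at both (0.504% of all genes). At a single age, Rab37 was the 1 gene higher of 50 in young (3.89% of all genes) and of 49 in aged mice (2.47%). None of 50 was lower in young (1.24%), and Rab26 alone of 49 was lower in aged mice (3.01%). Rab26 was low in thalamus, as given above, and in neocortex alone it did not pass the rule. In dentate alone it was lower at both ages, and in thalamus alone it was higher in young mice. The median log2 ratio of ethanol over vehicle was -0.01 in young and -0.15 in aged for the Rab genes and 0.01 and -0.08 for all genes.

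Rab37 stood at 12.6, 28.4, 15.5 and 23.9 CPM in neuronal spots, a ratio of 2.25 (1.99 to 2.54) in young and 1.54 (1.36 to 1.75) in aged mice. Within thalamus, where most of its UMIs lay, its ratio was 0.912 in young and 0.824 in aged. The number of thalamus spots followed the gavage label, as given above, and with neuronal regions weighted equally 0 Rab genes passed the rule. In neocortex alone Rab37 was at 2.31, 4.23, 2.37 and 5.06 CPM from 36, 69, 24 and 59 UMIs, which passed the rule with ratios of 1.83 and 2.14. Rab3c, also highest in thalamus, was higher in neuronal spots of both libraries labelled ethanol, with ratios of 1.44 and 1.37, under 1.5-fold.

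In white matter, 34 Rab genes could be measured at both ages, and Rab3b was higher with ethanol at both (1 of 34, against 1.22% of all genes). It was also the 1 gene higher at a single age, of 37 in young (3.46% of all genes) and of 34 in aged mice (4.75%), while Rab33a alone of 37 was lower in young (5.1%) and none of 34 in aged mice (6.31%). Rab3b, which lies at chr4:108879070-108943324, was at 50.3, 75.8, 27.1 and 42.6 CPM, from 133, 213, 51 and 115 UMIs. Its ethanol over vehicle ratio was 1.51 (1.21 to 1.88) in young and 1.57 (1.12 to 2.23) in aged mice. The same values made it lower in aged than in young mice at both gavages (1 of 36, against 0.321% of all genes), by 1.86-fold (1.33 to 2.62) with vehicle and 1.78-fold (1.41 to 2.25) with ethanol. At a single gavage 1 of 36 was lower with vehicle (3.51% of all genes) and 2 of 37 with ethanol, Rab3b and Rab39b (3.98%). Each of these ratios was under 2-fold. In thalamus Rab3b also passed the rule for ethanol, at 4.38, 10.4, 6.36 and 9.70 CPM from 10, 92, 16 and 59 UMIs, whereas in neocortex its ratios were 0.897 and 0.842. In the same white matter spots the 8 striatum markers, all detected, summed to 238, 253, 169 and 186 CPM, in the same order of libraries as Rab3b, and the microglia markers given above were higher in both libraries labelled ethanol. The neuron markers were at 1324, 1252, 1192 and 1090 CPM, in another order. Among the named regions Rab3b had its highest means in neocortex and hypothalamus, at 83.1 and 69.4 CPM. The markers of these regions did not have the order of Rab3b in white matter either. Neocortex markers were at 268, 206, 251 and 241 CPM there, and hypothalamus markers at 677, 505, 730 and 402 CPM. Both lists were lower with ethanol at each age. The part of these cell types in the level of Rab3b was not tested.

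Rab32 and Rab7b fell below the minimum of 50 UMIs and were singled out after their values were seen. In white matter Rab32 had 3, 19, 2 and 11 UMIs, an ethanol over vehicle ratio of 5.96 (1.75 to 31.4) in young and 3.84 (0.837 to 35.6) in aged mice. Rab7b had ratios of 3.76 (1.015 to 20.8) and 1.83 (0.779 to 4.78). The microglia markers, given above, were higher in the same libraries, and their part was not tested.

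No Rab gene passed the rule for gavage at both ages in choroid (0 of 13 higher and 0 lower, against 2.95% and 1.69% of all genes). At a single age Rab6a was higher in young (1 of 15, 7.15% of all genes) and Rab5c in aged mice (1 of 14, 8.7%), none of 15 was lower in young (7.73%) and Rab11a was lower in aged mice (1 of 14, 7.06%). Nor did any pass it for age in neuronal spots (0 of 49 each way, against 0.0771% higher and 0.0926% lower of all genes), or at either gavage (higher 1.68% with vehicle and 0.868% with ethanol, lower 0.753% and 1.77% of all genes). In white matter 0 were higher with age at both gavages (0.0458% of all genes, and 1.24% and 2.39% at a single gavage), and 0 were lower with ethanol at both ages (1.06%). In choroid 0 of 7 passed for age, against 0.183% higher and 2.47% lower of all genes. With vehicle alone none of 16 was higher (2.22%) and Rab21 was lower (8.55%), and with ethanol alone Rab1a was higher (6.1%) and Rab6a and Rab3a were lower (8.1%). These zeros come from a rule of size over single libraries, and no test stood behind them.

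**Figure D4:**
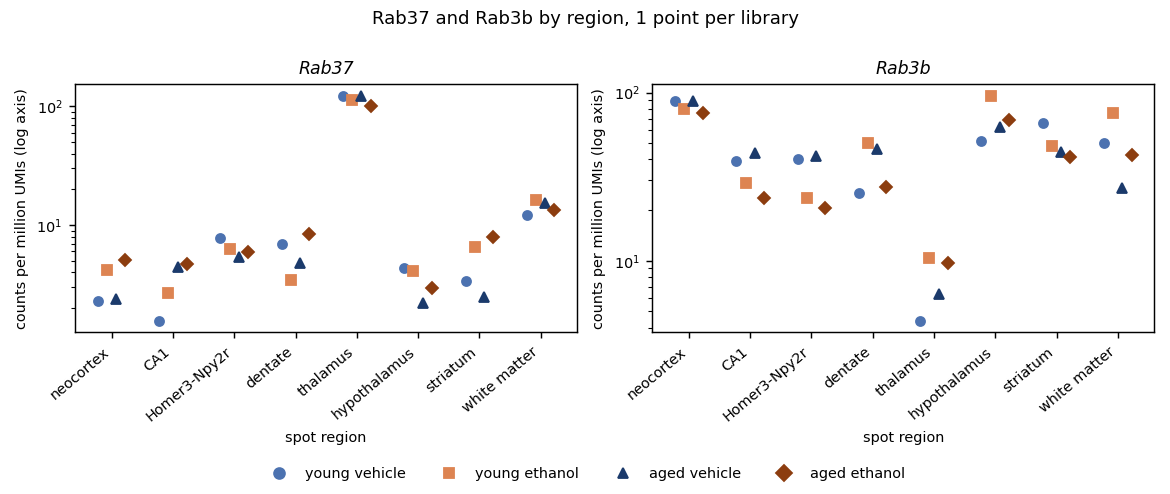
Levels in CPM (log axes) of Rab37 and Rab3b in the 7 neuronal regions and in white matter, with 1 point per library. Rab37 lay between 100.2 and 123 CPM in thalamus in all 4 libraries and at most at 16.4 CPM, in white matter, elsewhere. Rab3b in white matter was highest in young ethanol at 75.8 CPM and lowest in aged vehicle at 27.1 CPM.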

How the data were processed

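The deposited matrix held UMI counts per gene and spot, which were used as the authors deposited them. Per the file headers it was written by Space Ranger 1.3.1, whereas per the submitters' processing notes the version was 2.0.0 and the genome mm10. The annotation release, strand setting and whether spots off the tissue had been removed were not given in the sources used here. Spots were tied to libraries by the letter at the end of the deposited barcode, which the labels give for each sample. Spots under 500 UMIs (122 of 11064) were left out. A spot holds several cells, so no doublet caller was run.

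Clustering (scanpy 1.11.5) used 1632 genes (1500 variable genes with the markers), 30 principal components, 15 neighbours and Leiden resolution 1, which gave 22 clusters. Rab genes and their pathway genes took no part. Names came from medians of marker lists, with limits set after the medians were seen. UMIs were summed per class and library and fitted with edgeR 4.0.16 (quasi-likelihood, TMM, library as block). All 54 Rab genes passed the minimum of 50 UMIs over the sums. The spread between libraries includes age and gavage, and p-values describe these 4 sections. The fit was tested on simulated data. Alternatives were DESeq2 1.42.0, class totals without TMM, a minimum of 1 UMI, other clusterings and leaving out each library.

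The genes, role groups and pathway lists were chosen with earlier results of these data known. Named genes were the 10 highest and 10 lowest called members for white matter and choroid against neuronal spots, up to 4 each way between regions, up to 4 called pathway genes each way per list (some are not reported here), and every member past 1.5-fold the same way in both comparisons of gavage or age. Positions and promoter windows are RefSeq's for GRCm38.p6, the assembly that mm10 names. All 54 symbols matched, and 25 of the loci overlap another gene.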

Additional observations from a re-analysis of the deposited data

Results flagged for a closer look

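In 2 of 12 sets of log2 ratios of CPM, each over 4 libraries of white matter against neuronal spots, 1 library stood apart from the others by Dixon's limit for 4 values, which chance alone passes in about 1 of 20 such sets. For Rab31 the library labelled aged vehicle was at 1.86 and the others at 2.03 to 2.05. For Rab33b the library labelled young vehicle was at 1.71 and the others at 1.36 to 1.38. Both genes were above neuronal spots in each library.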

How the results depend on the processing

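Of the values of genes named by the rule above under other settings, 891 kept direction and call, 31 kept direction and lost the call, and 2 turned. Other genes given in the text were not in this count, among them Rab1b, Rab2b and Rab8a in white matter and Rab3a in dentate. With no TMM, Rab1b and Rab3a turned their sign in these comparisons, and Rab2b and Rab8a lost their call. Rab27a in white matter turned to log2 0.18 with neocortex spots alone as the neuronal class, and Rab31 in the Homer3-Npy2r cluster against CA1 turned to 0.072 at resolution 2. In dentate against CA1, no TMM gave 11 higher and 9 lower, and leaving out 1 library at a time gave 12 to 15 lower. In the Homer3-Npy2r cluster against CA1, the omissions gave 7 to 12 higher. In choroid against white matter, totals without choroid markers gave 16 lower. The median log2 ratio of CPM of the Rab genes in white matter was -0.30, and -0.23 with neuronal regions weighted equally. For gavage in neuronal spots, 0 genes were higher at 2-fold, with equal weights, or in CA1, the Homer3-Npy2r cluster, dentate, hypothalamus or striatum alone, and 1 was lower in dentate alone (Rab26) and 1 in striatum alone (Rab40c). At 2-fold, 0 genes passed in white matter for gavage or for age. With a minimum of 20 UMIs, 1 gene, Rab31, was lower with age in choroid. The cause was not tested. At resolution 0.5 no cluster met the CA3 markers, so that comparison was not run. No paired analysis was possible because the age and gavage groups share only 1 replicate number, whereas the comparisons between spots had the library as a block. The choroid class, with 11 to 24 spots, limits genes with few UMIs.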

Other observations

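Some clusters left without a name also held high Rab levels, given here as values without a test. In a cluster led by Igfn1, Tafa2 and Slc30a3 (66, 77, 92 and 83 spots), Rab40b was at 98.3, 85.0, 94.6 and 84.8 CPM and Rab15 at 226, 197, 225 and 199 CPM, 2.46 and 1.99 times their levels over all neuronal spots. Rab33a and Rab8b were at 1.78 and 1.64 times theirs in the same cluster. In a cluster led by Six3 and Pvalb (18, 42, 6 and 35 spots), Rab37 was at 17.2, 66.7, 0 and 75.6 CPM, from 5, 51, 0 and 41 UMIs. The 0 of aged vehicle came from 6 spots and allows up to 34.5 CPM (3 UMIs), which is above the level of young vehicle.

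In a cluster of meningeal and vessel genes led by Fmod and Ptgds (159, 88, 129 and 89 spots), Rab3d, Rab13, Rab43 and Rab34 were at 1.98, 1.85, 1.69 and 1.60 times their neuronal levels. Rab34 was at 28.6, 25.2, 29.0 and 20.6 CPM there. In a cluster that held habenular and ependymal genes (26, 38, 21 and 29 spots), Rab31 was at 122, 67.1, 144 and 85.9 CPM, higher in the libraries labelled vehicle. The content of this cluster also followed the gavage label. At resolution 0.5 a separate cluster of habenular genes, Gpr151 and Tac2 among them, held 0, 26, 0 and 20 spots. The part of this mix in the level of Rab31 was not tested.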
